A study of Mus musculus with 22 samples.

Results

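The genes described here are 10 core components of the circadian clock, namely *Per1*, *Per2*, *Per3*, *Cry1*, *Cry2*, *Nr1d1*, *Nr1d2*, *Dbp*, *Ciart* and *Arntl*. They were taken by name from the 55406 genes that both count tables hold, and all 10 were found in both. Their RNA was measured by RNA sequencing of whole brains at postnatal day 0 in 2 mouse models of Prader-Willi syndrome (PWS). PWS-cr pups are heterozygous (HET PWS-Cr) for a deletion of the critical interval on the paternal chromosome, which holds *Snord116* and *Ipw*. PWS-IC pups are heterozygous (HET PWS-ICdel) for a paternal deletion of the imprinting centre, the element that the paternally expressed genes of this locus need in order to be active. The deletions are constitutive, and each model was compared with its own wild-type (WT) littermates. Brains were collected in the morning after birth, so each pup gives its clock genes at 1 time of day and no rhythm can be read from these data. The labels name 22 libraries, of which 20 have a column, giving 6 PWS-cr and 5 wild-type pups (4 litters) in one series and 4 PWS-IC and 5 wild-type pups (2 litters) in the other. Library titles give the litter, the pup and the series, so that 1_10_IC is pup 10 of litter 1 in the PWS-IC series.

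Total counts ranged from 45796030 to 62103143 per library. In the PWS-IC series, 2 libraries went against their labels: *Snrpn*, which the deletion silences, had 18116 counts in the library labelled 1_3_IC (PWS-IC, female) and 343 counts in the library labelled 1_7_IC (wild type, male). In the other 3 PWS-IC libraries *Snrpn* lay between 255 and 425 counts, and in the other 4 wild types between 12281 and 16556. The X-inactivation transcript *Xist* and the Y-linked *Eif2s3y* went against the labelled sex of the same 2 libraries, at 64 and 3191 counts in 1_3_IC and 124574 and 9 counts in 1_7_IC. The tests of the members in this series are therefore given for the 9 libraries as labelled and for the 7 libraries without these. Leaving out the 2 libraries rests on genes outside the clock. The list of glucocorticoid-responsive genes is given for both sets and the other gene lists for the 7. Relations with *Arntl* were computed over the 9, and the genes most like a member over all 20 libraries. Sex was unevenly spread over the 7 libraries, since all 3 PWS-IC pups are labelled female and 3 of the 4 wild types male, so sex and genotype are largely confounded there. Nothing in the labels beyond genotype, series, sex, litter and pup separates the samples, and p-values measure the spread between pups.

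The mammalian clock is a transcriptional feedback loop. The proteins of *Arntl* (BMAL1) and *Clock* pair up and activate genes through E-box elements, among them those for the period proteins (*Per1*, *Per2*, *Per3*) and cryptochromes (*Cry1*, *Cry2*), which return to inhibit the pair. *Ciart* (also called Chrono) encodes a further repressor of that pair. The nuclear receptors encoded by *Nr1d1* and *Nr1d2* (REV-ERB) repress *Arntl* through ROR elements, and *Dbp* encodes an output factor that activates genes through D-box elements. *Per1* also responds to glucocorticoid hormone and to cAMP signalling, the latter through cAMP response elements (CRE). Rhythms are led by the suprachiasmatic nucleus of the hypothalamus, and those of other brain regions are still maturing around birth.

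The sequences just before the starts of transcription were searched for these elements, and elements elsewhere in or around the genes were not sought. RefSeq (GRCm38.p6) gave 11 windows for 9 members, with *Per2* not among them and 2 starts each for *Per1* and *Arntl*. In the 250 bases before each start, matches on either strand were sought to the E-box CACGTG and the E-box variant CACGTT. Also sought were the D-box TTATGNAA, TNGGTCA (the ROR pattern, a loose form of the ROR element) and TGACG, the core of the CRE. The windows of *Per1*, whose level differed between genotypes below, of *Ciart*, which stood apart in 1 library, and of *Arntl*, the activator, are shown 5′ to 3′ on the gene's strand with the matches in capitals. Positions on mm10 are chr11:69098699-69098948 and chr11:69099902-69100151 (plus strand) for *Per1*, chr3:95882229-95882478 (minus strand) for *Ciart* and chr7:113207215-113207464 (plus strand) for *Arntl*.
Per1 start 1: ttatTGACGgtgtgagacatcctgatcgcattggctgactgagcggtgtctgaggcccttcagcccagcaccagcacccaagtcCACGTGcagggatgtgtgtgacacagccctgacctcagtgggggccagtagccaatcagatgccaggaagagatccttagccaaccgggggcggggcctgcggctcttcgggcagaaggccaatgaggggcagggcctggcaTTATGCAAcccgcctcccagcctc
Per1 start 2: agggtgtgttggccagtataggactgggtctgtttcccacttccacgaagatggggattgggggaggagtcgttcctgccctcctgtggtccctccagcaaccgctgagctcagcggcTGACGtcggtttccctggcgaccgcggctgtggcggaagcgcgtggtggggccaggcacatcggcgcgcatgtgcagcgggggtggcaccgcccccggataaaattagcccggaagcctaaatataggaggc
Ciart: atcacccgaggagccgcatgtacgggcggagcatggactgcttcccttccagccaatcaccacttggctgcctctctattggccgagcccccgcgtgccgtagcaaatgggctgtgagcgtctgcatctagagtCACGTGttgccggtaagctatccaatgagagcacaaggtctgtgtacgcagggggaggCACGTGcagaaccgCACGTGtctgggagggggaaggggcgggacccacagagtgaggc
Arntl start 1: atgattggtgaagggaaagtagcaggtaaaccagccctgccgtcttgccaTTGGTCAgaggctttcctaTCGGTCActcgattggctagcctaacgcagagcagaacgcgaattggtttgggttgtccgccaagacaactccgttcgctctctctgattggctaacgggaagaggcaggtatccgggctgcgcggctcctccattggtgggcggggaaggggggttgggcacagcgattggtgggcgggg

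The *Ciart* window held 3 E-boxes, beginning 116, 58 and 44 bases before the start. The window before the *Per1* start 1 held an E-box at 166 bases, a D-box at 24 bases and a CRE core at 246 bases, and the window of start 2 held a CRE core at 132 bases and none of the other elements. *Cry1* had an E-box at 60 bases, an E-box variant at 79 bases and a CRE core at 8 bases. *Per3* had D-boxes at 205 and 158 bases and a match to the ROR pattern at 118 bases. *Cry2* had a match to the ROR pattern at 133 bases, an E-box variant at 166 bases and a CRE core at 209 bases. *Nr1d1* had an E-box variant at 28 bases. *Arntl* had 2 matches to the ROR pattern, at 200 and 181 bases before start 1. The same 2 lie in the overlapping window of start 2, at 246 and 227 bases. Read on the strand of the pattern, N was T or C in every match to it. No match overlapped another, and those on the other strand read as the reverse complement. *Dbp* and *Nr1d2* had no match in these windows. Among all 32851 RefSeq windows of this length, 6.02% held an E-box, 3.85% the variant and 3.07% a D-box. The ROR pattern was matched in 9.19% and the CRE core in 17.8%. These are matches of letters, and no binding was measured.

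**Figure D1:**
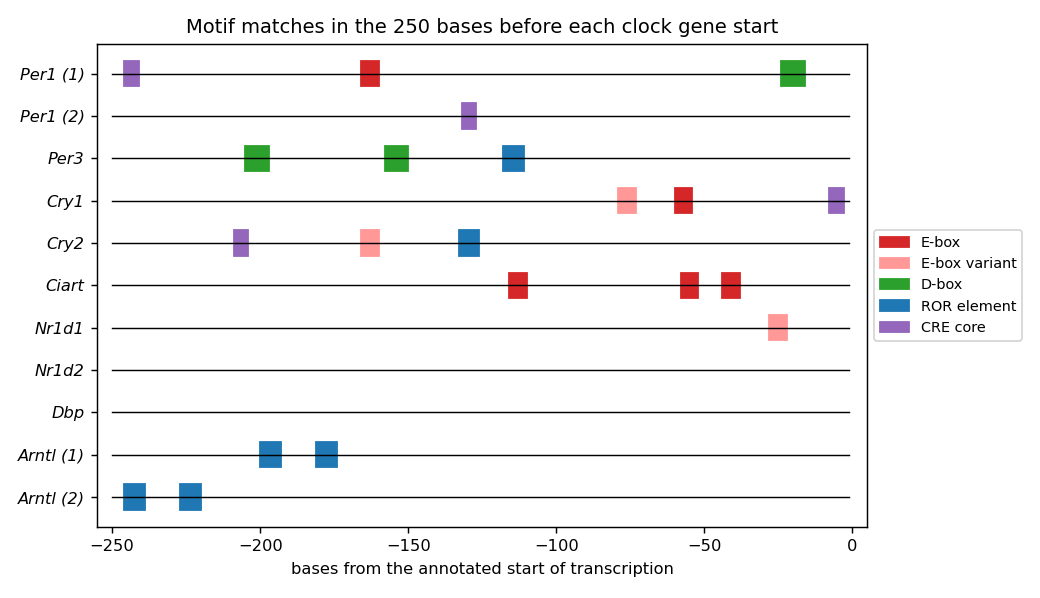
Motif matches in the 250 bases before each annotated start (x axis, bases from the start) for the members with a RefSeq window; (1) and (2) are separate starts. *Ciart* carries 3 E-boxes, *Per1* an E-box and a D-box before start 1, and *Arntl* 2 matches to the ROR pattern TNGGTCA.

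On mm10 (GENCODE vM21) *Per1* spans chromosome 11, 69095217 to 69109960, *Per2* chromosome 1, 91415982 to 91459324, *Per3* chromosome 4, 151003652 to 151044665, *Cry1* chromosome 10, 85131700 to 85185064, and *Cry2* chromosome 2, 92403646 to 92434043. *Nr1d1* spans chromosome 11, 98767932 to 98775333, *Nr1d2* chromosome 14, 18204054 to 18239127, *Ciart* chromosome 3, 95878503 to 95882251, *Dbp* chromosome 7, 45705088 to 45710203, and *Arntl* chromosome 7, 113207465 to 113314126. The libraries are unstranded, so reads from exons shared with a gene on the other strand cannot be told apart. *Dbp* shares 539 exon bases with *Sphk2* and *Nr1d1* shares 263 with *Thra*, a gene read at a mean of 731 CPM (counts scaled to library size) over the 20 libraries. *Cry2* shares 295 exon bases with *D930015M05Rik* and *Arntl* 33 with *Gm45355*. The values of *Dbp* and *Nr1d1* are uncertain for this reason, while *Per1*, *Per2*, *Cry1* and *Nr1d2* overlap no annotated gene.

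Levels per gene length show the order of the members in the wild-type brain. In the 5 wild types of the PWS-cr series the deposited TPM, which scale counts by gene length and library size, were highest for *Cry2*, at 43.2 ± 2.62 (SD, n = 5), and *Cry1*, at 37.1 ± 7.42, followed by *Per1* at 31.0 ± 2.20. *Nr1d2* (23.1 ± 3.12) and *Nr1d1* (22.3 ± 2.45) came next, then *Arntl* (15.9 ± 1.20) and *Per2* (13.2 ± 1.85). The lowest were *Dbp* (7.19 ± 0.916), *Ciart* (5.57 ± 0.289) and *Per3* (4.49 ± 0.831). Within a pup, each gene lay above the next in this order in 5 of 5 pups, except *Cry2* over *Cry1* (4 of 5) and *Nr1d2* over *Nr1d1* (3 of 5). The ranges over pups did not overlap for *Per1* and *Nr1d2*, *Nr1d1* and *Arntl*, *Per2* and *Dbp*, or *Dbp* and *Ciart*. In the 4 wild types of the PWS-IC series that fit their labels the order was the same except that *Cry1* (38.4 ± 0.512, n = 4) and *Cry2* (38.1 ± 1.24) exchanged places. There *Cry1* exceeded *Cry2* in 1 of 4 pups, *Per1* exceeded *Nr1d2*, *Nr1d2* exceeded *Nr1d1* and *Ciart* exceeded *Per3* in 3 of 4 each, and the other steps held in 4 of 4 with no overlap.

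Levels varied little over the libraries for some members and widely for others. Over the 18 libraries without the 2 that went against their labels, the coefficient of variation of CPM was lowest for *Cry2* (4.97%), *Arntl* (5.48%) and *Nr1d1* (7.89%). It was highest for *Ciart* (25.4%), *Per1* (15.8%) and *Nr1d2* (13.9%). These values pool genotypes and series. Within groups of these libraries it was 5.15% to 10.5% for *Per1* and 1.03% to 24.3% for *Nr1d2*. For *Ciart* it was 5.34% in PWS-cr wild types, 9.19% in PWS-cr pups and 6.20% in PWS-IC wild types. In PWS-IC pups, 1_10_IC among them, it was 47.4%. In counts, which set the precision, *Ciart* rested on the fewest in these 18 libraries, 143 to 343, and *Cry2* on the most, 3178 to 4072.

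**Figure D2:**
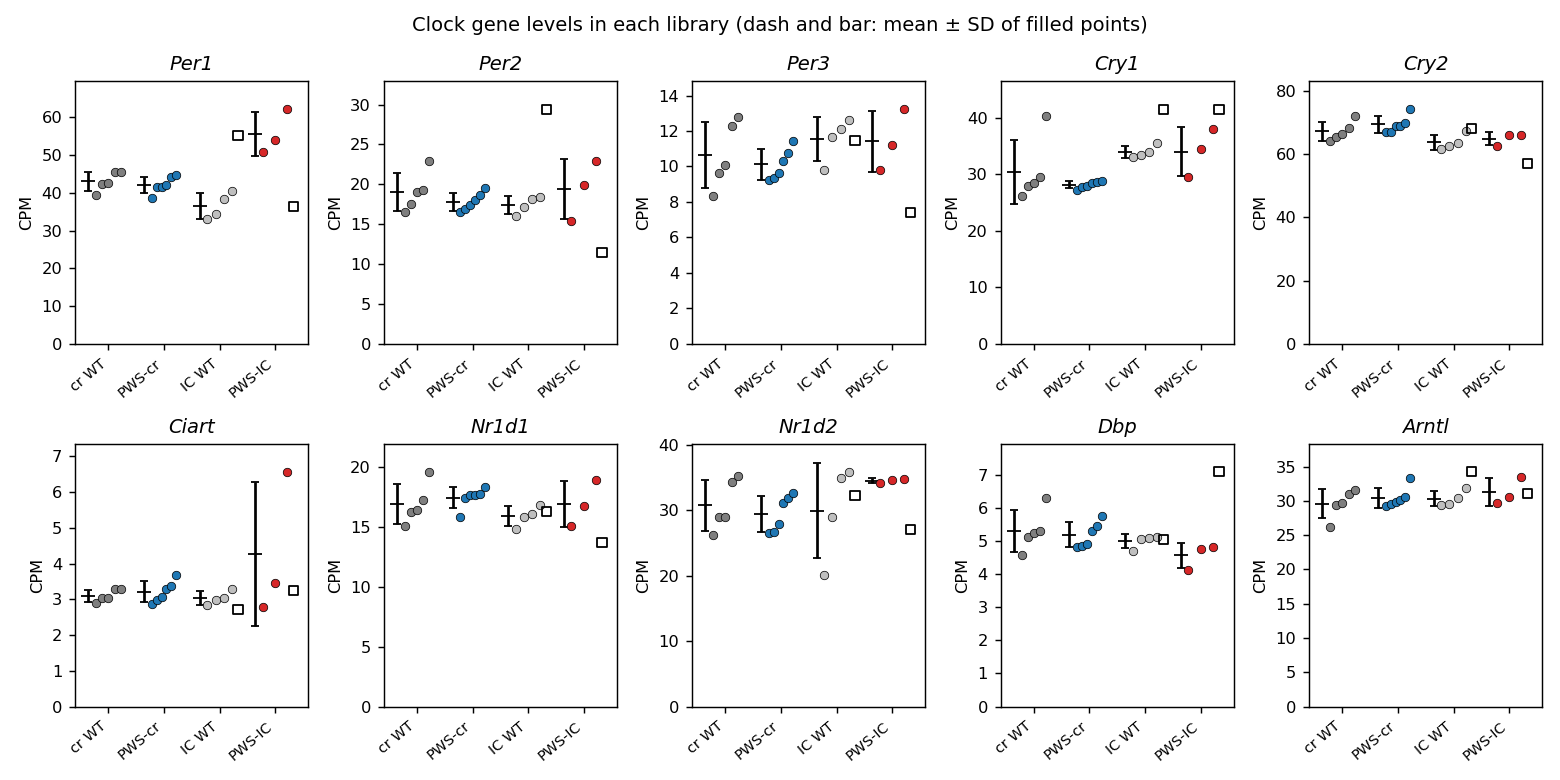
Level of each member in CPM (y axis, from 0) in every library by group. Filled points are pups, the dash and bar beside them their mean ± SD, and open squares the 2 libraries that went against their labels. *Per1* separates the 3 filled PWS-IC pups (50.8 to 62.2 CPM) from their 4 wild types (33.0 to 40.6 CPM), and 1 PWS-IC pup stands apart for *Ciart* (6.57 CPM).

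The PWS-cr comparison asked whether loss of *Snord116* and *Ipw* alone changes the clock genes. None of the 10 members passed the test (edgeR's quasi-likelihood test with litter in the model, Benjamini-Hochberg adjusted p under 0.05), and none had an unadjusted p under 0.05. Of all 22172 genes tested 0.0135% were called and 2.07% had an unadjusted p under 0.05. Log2 fold changes of PWS-cr over wild type lay between -0.14 for *Per2* (SE 0.085, adjusted p = 1.00) and 0.084 for *Ciart* (SE 0.10), with 4 members above 0 and a median of -0.040, beside 0.0034 over all genes. DESeq2 on the same genes called none of them either and gave none an unadjusted p under 0.05. For no member were the groups free of overlap, against 0.158% of all genes.

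*Per1* lay within a narrow band in this series. PWS-cr pups had 44.3, 42.1, 41.5, 41.6, 38.7 and 44.7 CPM, and wild types 45.5, 42.4, 45.4, 42.5 and 39.5 CPM. The groups overlapped fully, and the log2 fold change was -0.047 (SE 0.059). *Arntl* was as even, at 29.2 to 33.3 CPM in PWS-cr pups (median 30.0) and 26.1, 29.4, 29.7, 31.0 and 31.6 CPM in wild types. *Cry1* spanned 27.3 to 28.7 CPM in PWS-cr pups, while 4 wild types had 26.2 to 29.4 CPM and the wild-type female 3_6_Cr had 40.4 CPM. That pup was also the highest of its group for *Per2* (22.9 CPM, beside 16.6 to 19.3 CPM in the other wild types).

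The PWS-IC comparison asked the same of the loss of all paternally expressed genes of the locus. The authors report that *Ube3a*, expressed from the maternal chromosome, is raised in this model as well, so loss and rise cannot be told apart. *Per1* was higher in PWS-IC pups, and it was the single member that passed the test. Over the 7 libraries 1 of 10 members was called, and it was higher, beside 0.242% of the 21913 genes tested called in all and 0.0821% called as higher. *Per1* had 62.2, 50.8 and 54.1 CPM in the 3 PWS-IC pups and 33.0, 38.3, 34.4 and 40.6 CPM in the 4 wild types. The lowest PWS-IC pup lay above the highest wild type, a separation in that direction that 5.11% of all genes showed. The fitted difference was 1.53-fold (log2 0.62, SE 0.090, adjusted p = 0.0175), and *Per1* ranked 37 among all genes by p. The level was 55.7 ± 5.87 CPM (SD, n = 3) against 36.5 ± 3.49 CPM (n = 4). In bulk tissue a change in the share of cells of a type and a change in RNA per cell cannot be told apart.

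The difference in *Per1* was present in both litters. In litter 1 the PWS-IC pup had 62.2 CPM and the wild types a mean of 35.6 CPM, a log2 difference of 0.81. In litter 4 the PWS-IC pups averaged 52.4 CPM and the wild types 37.5 CPM, a log2 difference of 0.49. The wild-type female, 1_1_IC, had the lowest value of the series, 33.0 CPM, so the 4 females alone showed the same direction. With sex in the model the log2 fold change was 0.85 (SE 0.13, adjusted p = 0.0192), and without 1_1_IC it was 0.56 (adjusted p = 0.0212). The call was lost without 1_10_IC (log2 0.48, adjusted p = 0.195), without the wild type 4_3_IC (log2 0.59, adjusted p = 0.122) or without 4_5_IC (log2 0.63, adjusted p = 0.0522).

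As labelled, with 9 libraries, no member was called and none had an unadjusted p under 0.05, beside 0% and 8.23% of 22367 genes. DESeq2 called 1 gene of all in these 9 libraries, and it was no member. The library labelled 1_3_IC had 36.4 CPM of *Per1*, within the range of the wild types, and the library labelled 1_7_IC had 55.2 CPM, within that of the other PWS-IC pups. The log2 fold change of *Per1* was then 0.33 (SE 0.19, adjusted p = 0.565). No member's groups were free of overlap, against 2.24% of all genes.

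**Figure D3:**
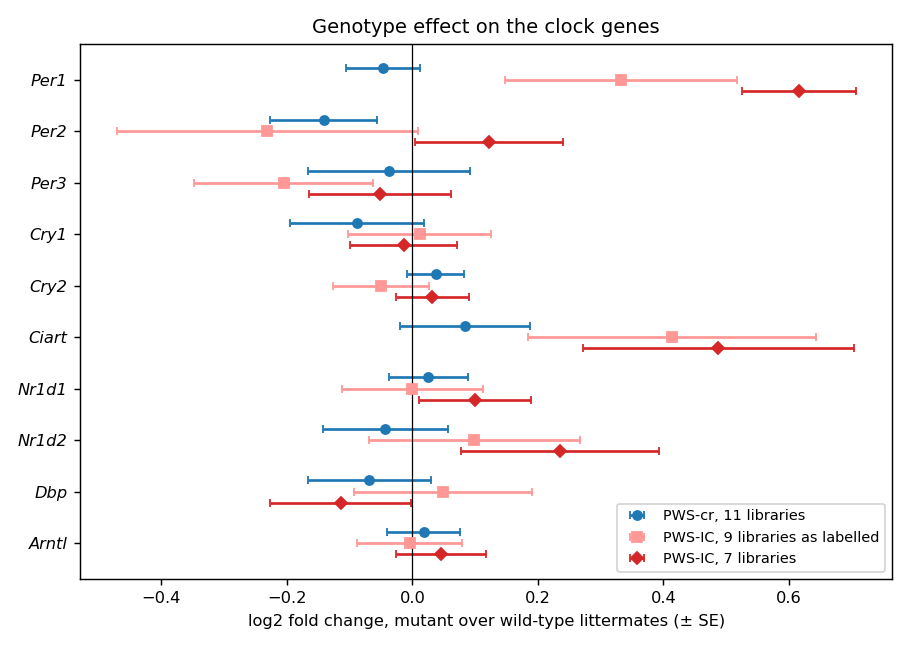
Log2 fold change of mutant over wild-type littermates (x axis) with its SE for each member in the PWS-cr series, in the PWS-IC series as labelled and in the 7 PWS-IC libraries that fit their labels. *Per1* lies at 0.62 in the 7 libraries and at -0.047 in the PWS-cr series, and the other members lie closer to 0 or, as *Ciart*, carry a wide error.

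The other period genes did not follow *Per1*. *Per2* had 15.4, 19.9 and 22.9 CPM in the 3 PWS-IC pups and 17.2, 18.4, 16.0 and 18.1 CPM in the 4 wild types, with the PWS-IC pups on both sides of the wild types (log2 fold change 0.12, SE 0.12, adjusted p = 0.685). Its log2 difference was -0.21 in litter 1 and 0.33 in litter 4. *Per3* spanned 9.80 to 13.2 CPM and 9.80 to 12.6 CPM, with a log2 fold change of -0.052 (SE 0.11). *Per2* reached 29.4 CPM in the library labelled 1_7_IC and 11.4 CPM in the library labelled 1_3_IC, the highest and lowest of all 20 libraries, and *Per3* was at its lowest, 7.41 CPM, in the latter.

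Among the repressors outside the period family, *Ciart* had 6.57, 2.78 and 3.45 CPM in the 3 PWS-IC pups and 2.84, 2.98, 3.29 and 3.05 CPM in the wild types. The pup 1_10_IC lay far above the wild types, and the other PWS-IC pups lay just below and just above their range. The fitted log2 fold change was 0.49 (SE 0.22, unadjusted p = 0.0454, adjusted p = 0.383), so that 2 members had an unadjusted p under 0.05, beside 12.8% of all genes. The value was -0.028 without 1_10_IC. In litter 4 the *Ciart* difference was -0.034, against 1.16 in litter 1, where 1_10_IC is the only PWS-IC pup.

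*Cry1* (33.1 to 35.5 CPM in wild types, 29.4, 34.5 and 38.0 CPM in PWS-IC pups) and *Cry2* (61.4 to 67.2 CPM and 62.6 to 66.0 CPM) had log2 fold changes of -0.014 (SE 0.085) and 0.032 (SE 0.058). *Nr1d1* had 0.099 (SE 0.090) and *Nr1d2* 0.24 (SE 0.16). The 3 PWS-IC pups lay close together for *Nr1d2*, at 34.1, 34.8 and 34.6 CPM, while the wild types had 35.9, 28.9, 20.1 and 34.9 CPM, and the lowest value was that of 4_3_IC. Without that pup it was 0.035.

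*Dbp*, the output factor, had 4.75, 4.13 and 4.83 CPM in PWS-IC pups and 5.12, 5.10, 4.70 and 5.06 CPM in wild types (log2 fold change -0.11, SE 0.11). *Arntl*, the activator, had 29.6, 30.6 and 33.5 CPM in PWS-IC pups and 31.9, 30.5, 29.5 and 29.4 CPM in wild types (log2 fold change 0.045, SE 0.072). The groups overlapped for both genes. Over all 10 members 7 lay above 0, with a median of 0.072, beside 0.0014 over all genes.

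**Figure D4:**
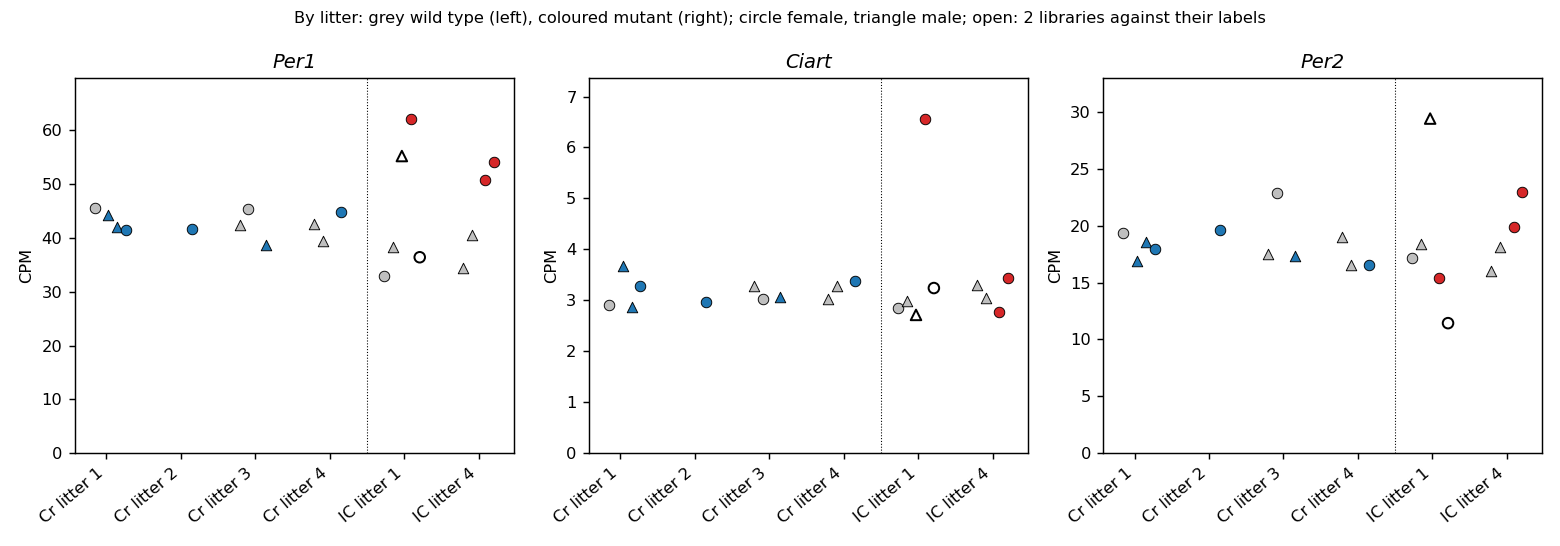
*Per1*, *Ciart* and *Per2* in CPM (y axis, from 0) by litter (x axis), with wild types on the left (grey) and mutants on the right (coloured), females as circles and males as triangles, and the 2 libraries that went against their labels as open symbols. *Per1* is higher in the filled PWS-IC pups of both litters, *Ciart* stands far above its wild types in 1_10_IC (6.57 CPM), and *Per2* is lower than its wild types in litter 1 and higher in litter 4.

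The library 1_10_IC stood apart beyond the clock, in genes chosen after their values were seen. *Txnip*, a regulator of glucose uptake, had 175 CPM there and 22.8 to 66.5 CPM in the other 8 libraries of the series, and the related arrestin gene *Arrdc3* had 160 CPM against 57.4 to 83.9 CPM. The immediate early gene *Fos* had 5.71 CPM against 2.08 to 3.16 CPM, and *Edn1*, which encodes the vasoconstrictor endothelin, 4.02 CPM against 1.00 to 1.55 CPM. The antisense gene *C920021L13Rik*, which overlaps the *Ciart* locus, had 1.40 CPM against 1.04 to 1.90 CPM, a range that includes it.

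Tested directly, the *Per1* effect differed between the models over 18 libraries, by a log2 difference of 0.66 (PWS-IC minus PWS-cr, SE 0.11, adjusted p = 0.0188). It was the only member called, beside 0.182% of 23574 genes. The call was lost with sex in the model (log2 0.65, adjusted p = 0.103), without 1_3_Cr (adjusted p = 0.137) or 3_5_Cr (adjusted p = 0.114) and without 1_10_IC (adjusted p = 0.195), 4_3_IC (adjusted p = 0.0677) or 4_5_IC (adjusted p = 0.0503), with *Per1* differences from 0.54 to 0.68 in these settings. Over all 20 libraries as labelled no member was called, beside 0% of 23771 genes, and the *Per1* difference was 0.39 (SE 0.21, adjusted p = 0.836). DESeq2 called 3 genes there, none a member, and 1123 genes, none a member, had an unadjusted p under 0.05 in edgeR.

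The controls of the series differed as well. Between the wild types of the 2 series *Per1* was lower in the PWS-IC series over 9 libraries, at 33.0 to 40.6 CPM against 39.5 to 45.5 CPM (log2 -0.24, SE 0.070, adjusted p = 0.0273). Wild types of the series differed in much of the transcriptome, with 21.1% of 22260 genes called, 10.8% as lower, and 20.2% without overlap, so a call of *Per1* is close to the background here. The call was lost without 1_3_Cr, 3_6_Cr, 1_1_IC or 4_3_IC (adjusted p from 0.0577 to 0.105). *Cry1* had a log2 difference of 0.15 (SE 0.11), and without 3_6_Cr it was higher in the PWS-IC series (log2 0.27, adjusted p = 0.00464). With the 10 wild types as labelled no member was called, beside 23.1% of 22613 genes. Series and batch cannot be told apart, and this contrast has no term that separates them.

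No difference between litters passed the test for any member. Between the 4 litters of the PWS-cr series 0 of 10 members were called by edgeR or DESeq2 and none had an unadjusted p under 0.05, beside 0.0226% of genes called and 6.45% at that unadjusted p. Between the 2 litters of the PWS-IC series 0 were called by either tool over 7 libraries, where 2.56% of genes were called, and over 9 libraries, where 0.0402% were. None of the members had an unadjusted p under 0.05 in either set, beside 26.2% of genes over 7 libraries and 18.6% over 9. The 561 genes called over 7 libraries became 2 without 4_3_IC and 3150 without 1_5_IC. The largest fitted litter differences over 7 libraries, as litter 4 minus litter 1, were -0.38 for *Ciart* (SE 0.22, adjusted p = 0.286) and 0.19 for *Per3* (SE 0.11, adjusted p = 0.312), and for *Per1* the difference was -0.046 (SE 0.091).

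Sex was tested in the PWS-cr series, where each genotype holds both sexes. No member was called by edgeR or DESeq2 or had an unadjusted p under 0.05, beside 0.0316% of genes called and 2.71% at that unadjusted p. Male minus female, 8 of 10 members lay below 0, with a median of -0.082, and the largest differences were those of *Cry1* (-0.18, SE 0.086) and *Per2* (-0.11, SE 0.077). *Per1* had -0.087 (SE 0.051).

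The wider clock machinery was read from lists of named genes. Of 11 other clock transcription factors 0 passed the test and 0 had an unadjusted p under 0.05 in the 7 PWS-IC libraries, with 4 above 0 and a median of -0.031. The lowest p-values were those of *Npas2*, which can stand in for *Clock* (log2 -0.31, SE 0.14), and *Hlf*, a relative of *Dbp* (log2 -0.21, SE 0.10), both with adjusted p = 0.403. *Clock*, whose protein pairs with that of *Arntl*, had -0.031 (SE 0.057). Of 15 kinases, ligases and cofactors of the clock proteins 0 passed and 1 had an unadjusted p under 0.05, *Csnk1e* (log2 0.17, SE 0.059, adjusted p = 0.302), a kinase that marks period proteins for turnover. Of 12 clock outputs and E-box targets 0 passed, and *Pdk4* (0.39), *Nampt* (-0.22) and *Tsc22d3* (0.16) had an unadjusted p under 0.05. Of all genes 12.8% were under that p in these 7 libraries. In the PWS-cr series none of these 3 lists held a called gene or an unadjusted p under 0.05.

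Markers of tissues that lead rhythms ranged widely in level. The 12 genes of the suprachiasmatic nucleus list summed to 91.4 to 110 CPM over the 18 libraries, most of it from *Lhx1* (17.8 to 47.5 CPM), *Prokr2* (14.0 to 27.0 CPM), *Cck* (15.1 to 26.3 CPM) and *Rasl11b* (8.10 to 16.4 CPM), and none of the 12 was at 0 in any of them. Others were lower, as *Vip* had 0.284 to 1.08 CPM, *Nms* 0.0371 to 0.222 CPM, *Prok2* 0.310 to 1.54 CPM and *Avp* 0.368 to 5.42 CPM. In the 7 PWS-IC libraries 11 of 12 genes of this list were tested and 0 passed. *Prokr2* (log2 -0.28, SE 0.088) and *Cck* (log2 -0.21, SE 0.074) lay below 0 at an unadjusted p under 0.05, which 12.8% of all genes had. The 10 genes of the pineal and retina list summed to 15.1 to 40.6 CPM, most of it from *Otx2* (12.1 to 32.6 CPM), while *Aanat*, which makes melatonin's precursor, had 0.227 to 0.990 CPM and *Asmt* 0.0174 to 0.191 CPM. The pineal and retina list had 0 of 7 tested genes called. These genes were named for their role or level.

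Genes that respond to glucocorticoid hormone, a list that includes *Per1*, lay above 0 together with it. In the 7 PWS-IC libraries the other 17 genes of the list all lay above 0, with a median of 0.27 beside 0.0014 over all genes. None of the 17 passed the test. Of all genes 12.8% had an unadjusted p under 0.05, and 11 of the 17 did. They included the metallothioneins *Mt1* (log2 0.54, SE 0.13, adjusted p = 0.184) and *Mt2* (log2 0.47, SE 0.13, adjusted p = 0.225), the NF-kappaB inhibitor *Nfkbia* (log2 0.42, SE 0.098, adjusted p = 0.188) and *Pdk4* (log2 0.39, SE 0.11, adjusted p = 0.245). In the PWS-cr series 10 of the 17 lay above 0, with a median of 0.018 and 0 at an unadjusted p under 0.05, beside 2.07% of all genes. Male minus female in that series, 14 of the 17 lay below 0, with a median of -0.057. Of the 17, 2 had an unadjusted p under 0.05 for sex, beside 2.71% of all genes. Sex and genotype are largely confounded in the 7 PWS-IC libraries, and the part of sex in this list was not tested.

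**Figure D5:**
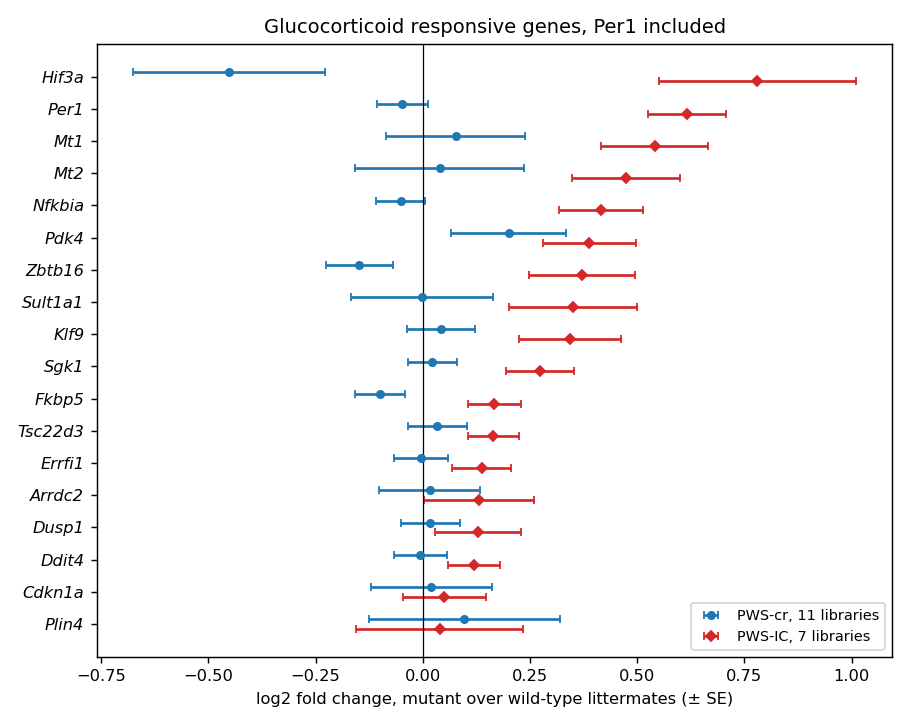
Log2 fold change of mutant over wild-type littermates (x axis) with its SE for the 18 genes of the glucocorticoid responsive list, *Per1* among them, in the PWS-cr series and in the 7 PWS-IC libraries. All 18 lie above 0 in the 7 PWS-IC libraries, and *Per1* alone of them passed the test.

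The mean log2 CPM of those 17 genes was 3.82 to 3.97 in the 4 PWS-IC wild types, 4.12 to 4.21 in the 3 PWS-IC pups and 3.71 to 3.99 in the PWS-cr series. The library labelled 1_7_IC had 4.15 with 55.2 CPM of *Per1*, and the library labelled 1_3_IC had 4.11 with 36.4 CPM. The list and *Per1* thus went together in 1_7_IC and not in 1_3_IC. As labelled, with 9 libraries, 16 of the 17 lay above 0, with a median of 0.22. Of the 17, 7 had an unadjusted p under 0.05, beside 8.23% of all genes.

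Immediate early genes, a list that also includes *Per1*, did not lie on 1 side. Of the other 21, 11 lay above 0 in the 7 PWS-IC libraries, with a median of 0.062, and 0 passed the test. *Arc* (log2 -0.49, SE 0.12), *Egr3* (log2 -0.45, SE 0.12) and *Btg2* (log2 -0.36, SE 0.10) lay below 0 and *Nr4a1* (log2 0.25, SE 0.084) above 0. In all, 3 of the 21 lay below 0 and 2 above 0 with an unadjusted p under 0.05, beside 12.8% of all genes.

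Markers of other cells were read in the same 7 libraries, where 0.242% of all genes were called. All 8 tested red cell genes lay above 0, with a median of 0.83, and 1 of them, *Hbb-bt*, passed the test (log2 1.08, SE 0.17, adjusted p = 0.0365). Their summed level, over 10 genes, was 445 to 686 CPM in PWS-IC pups, 141 to 331 CPM in their wild types and 89.4 to 142 CPM in the PWS-cr series. Of 12 endothelial genes 10 lay above 0, with a median of 0.10, and *Slc2a1* passed (log2 0.54, SE 0.086, adjusted p = 0.0330), with summed levels of 242 to 298 CPM against 235 to 247 CPM. Of 10 astrocyte and radial glia genes 3 lay above 0 (median -0.15; summed levels 1520 to 1778 CPM against 1641 to 1920 CPM), of 12 choroid plexus genes 1 (median -0.19; 597 to 735 CPM against 692 to 928 CPM) and of 12 meningeal genes 1 (median -0.17; 506 to 833 CPM against 685 to 785 CPM), none called. Of 10 neuronal genes 6 lay above 0 (median 0.028; 8485 to 9954 CPM against 8603 to 9164 CPM). Of 8 genes of RNA quality and stress 5 lay above 0 (median 0.020; 1302 to 1763 CPM against 1424 to 1716 CPM). The part of these markers in the *Per1* difference was not tested.

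Whether *Arntl* and the members it activates varied together was tested over pups, in 18 relations of log2 CPM, within each series. None passed after adjustment by Pearson's r or Spearman's rho, and 3 by r and 2 by rho had an unadjusted p under 0.05. In the PWS-cr series (n = 11) *Arntl* and *Per3* had r = -0.70 (permutation p = 0.0153, adjusted p = 0.133) and rho = -0.72 (permutation p = 0.0159, adjusted p = 0.143). With litter means subtracted r was -0.78 (permutation p = 0.00502, adjusted p = 0.0904) and rho was -0.84 (permutation p = 0.00225, adjusted p = 0.0405), so this relation passed by rho in that setting. The permutations there moved values across litters and did not allow for the subtracted means. The pup 2_2_Cr, the only one of its litter with a column, lay at its own litter mean for both genes. The p-values of that setting may therefore be too small. Without the 2 libraries farthest from the median of *Arntl*, 4_2_Cr and 1_5_Cr, r was -0.48 and rho -0.52, in the same direction and past no threshold. *Arntl* and *Nr1d1* had r = 0.68 (permutation p = 0.0222, adjusted p = 0.133) and rho = 0.51 (permutation p = 0.115), and r = 0.38 without the same 2 libraries.

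In the PWS-IC series as labelled (n = 9) *Arntl* and *Cry1* had r = 0.76 (exact permutation p = 0.0194, adjusted p = 0.133) and rho = 0.88 (exact permutation p = 0.00308, adjusted p = 0.0554), with r = 0.75 after litter means were subtracted. Without the 2 libraries farthest from the median of *Arntl*, 1_7_IC and 4_5_IC, r was 0.62 (exact permutation p = 0.137). *Arntl* and *Per1* had r = 0.31 (exact permutation p = 0.411) in this series and r = 0.20 (permutation p = 0.569) in the PWS-cr series. On the scale of log2(TPM + 1), 2 relations passed by r in the PWS-IC series, those of *Arntl* with *Per2* (r = 0.95, exact permutation p = 0.000254, adjusted p = 0.00456) and with *Cry2* (r = 0.86, exact permutation p = 0.00437, adjusted p = 0.0393). By rho 1 passed, that with *Cry1* (rho = 0.92, exact permutation p = 0.00131, adjusted p = 0.0236). On the CPM scale r was 0.66 for *Per2* and 0.25 for *Cry2*, and without 1_7_IC and 4_5_IC -0.15 and 0.0050.

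Over all 20 libraries, with litter means subtracted, the genes most like *Per1* among 15991 with a mean of at least 1 CPM were *Gm10654* (r = 0.96), *Gm44907* (r = 0.94), the pseudogene *Rps15a-ps7* (r = 0.92) and *Khdc4* (r = 0.90). Of the members, *Per2* came closest to *Per1* (r = 0.50, rank 1365), then *Ciart* (r = 0.47, rank 1609), and *Dbp* was farthest (r = -0.35). Those most like *Arntl* were *Gm48181* (r = 0.80), *Gm49376* (r = 0.78), *Slc35a1* (r = 0.77) and *Gm43343* (r = 0.75), and the closest member was *Per2* (r = 0.51, rank 302). These values describe the 20 libraries, which share litters and sequencing, and carry no test.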

How the data were processed

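Whole-brain polyadenylated RNA of newborn mice was sequenced as paired, unstranded reads. The authors used STAR (mm10) and featureCounts for mapping and counting, and removed 1 library per series after clustering, so 20 of 22 labelled libraries have columns and 2 wild types were not analysed here. The deposited tables hold raw counts per gene, and from these the authors made size-factor-scaled counts (signal), FPKM and TPM. Only the counts and the TPM were used. Columns of the authors' own DESeq2 comparisons (a mean signal, log2 fold changes with errors, a test score and p-values) were deposited as well and not used.

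Counts were tested with edgeR 4.0.16 (quasi-likelihood, TMM scaling, genotype and litter in the model) in R 4.3.3, keeping a gene when 4 or more libraries had 10 or more counts, with Benjamini-Hochberg adjustment over all genes tested and a threshold of 0.05. Wild types of the series were compared with series as the single term. DESeq2 1.42.0, RLE scaling, other filters, the robust option, leaving litter out of the model, adding sex to it and omitting each library in turn were tried as alternatives. CPM are TMM-scaled, and log2 CPM carry a prior count of 2. Correlations used permutations (100000, or all of them for n = 9) in SciPy 1.17.1, and TPM were taken as log2(TPM + 1). A DESeq2 call uses the same threshold. The fitting code was tested on simulated data. Groups came from the genotype labels, and pups are the replicates. Total counts were 45796030 to 62103143 per library, and sampling error is largest for *Ciart* and *Dbp*.

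The members and gene lists were chosen with earlier results of these data known. The genes named are the 10 members, the genes used to check labels, up to 4 genes per list with the lowest p, and the 4 genes most correlated with *Per1* and with *Arntl*; others are named for their role or, where stated, after their values were seen. Promoter windows are RefSeq (GRCm38.p6) and gene positions GENCODE vM21, on the same assembly as mm10.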

Additional observations from a re-analysis of the deposited data

Results flagged for a closer look

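In groups of 4 to 6 libraries, 50 tests of members were made for a library far from its group (Dixon's test at 95%). They gave 8 flags, and *Dbp* in 4_3_IC was flagged in both sets of wild types. A single test flags about 1 in 20 by chance. Groups that share libraries are not independent, so the 8 flags cannot be set against that rate. *Per2* had 29.4 CPM in the library labelled 1_7_IC, beside 16.0 to 18.4 CPM in the other wild types of its series, and *Cry1* had 41.5 CPM there, beside 33.1 to 35.5 CPM. That library went against its label in *Snrpn* and *Xist*. *Nr1d2* had 27.0 CPM in the library labelled 1_3_IC, which also went against its label, beside 34.1 to 34.8 CPM in the other PWS-IC pups. *Cry1* had 40.4 CPM in the wild type 3_6_Cr, beside 26.2 to 29.4 CPM. *Nr1d1* had 15.8 CPM in the PWS-cr pup 2_2_Cr, the only pup of its litter with a column, beside 17.4 to 18.3 CPM, and *Arntl* had 33.3 CPM in the PWS-cr pup 1_5_Cr, beside 29.2 to 30.5 CPM. *Dbp* had 4.70 CPM in the wild type 4_3_IC, both among the 5 wild types as labelled (5.05 to 5.12 CPM) and among the 4 that fit their labels (5.06 to 5.12 CPM).

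The genotype effect on *Per1* differed between the models by 0.66 on the log2 scale (PWS-IC minus PWS-cr, 18 libraries, edgeR adjusted p = 0.0188), with PWS-IC pups above their wild types in 3 of 3 cases. Of all genes 0.182% were called for this difference, and 5.11% separated the PWS-IC groups in that direction. The call was lost with sex in the model and in some fits with a library left out, as given above.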

How the results depend on the processing

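No paired analysis was possible because the pup numbers match no animal across genotypes and only litter, already a model term, links them. The count of members called over the 7 PWS-IC libraries was 1 and ranged from 0 to 1 when each library was left out, with *Per1* called in 11 of 14 alternatives and its log2 fold change between 0.48 and 0.85. For the difference between the models over 18 libraries the count was 1, ranged from 0 to 1 with a library left out, and was 0 with sex in the model, and *Per1* was called in 19 of 25 alternatives (0.54 to 0.76). Between wild types the count ranged from 0 to 1 with a library left out, both over 9 libraries (1 in the main fit) and over 10 (0 in the main fit), where *Per1* was called without 1_7_IC (log2 -0.24) and *Cry1* without 3_6_Cr (log2 0.33, edgeR adjusted p = 0.0068). Of the relations with *Arntl*, by Pearson's r 2 passed on the TPM scale and 0 on the CPM scale, and by rho 1 passed on the TPM scale, 1 on the CPM scale with litter means subtracted and 0 without that step. The permutations after litter means were subtracted did not allow for that step. *Arntl* and *Cry2* had TPM low for their CPM in the library labelled 1_3_IC, as given above, and causes were not tested. Counts of all genes called moved more: DESeq2 called 7 where edgeR called 3 (PWS-cr), 227 against 53 (7 PWS-IC libraries), 79 against 5, 183 against 9 and 1992 against 561 (litters of PWS-cr, of 9 and of 7 PWS-IC libraries) and 16 against 7 (sex). With no filter beyond 1 count edgeR called 10 (PWS-cr), 471 against 0 and 978 against 53 (9 and 7 PWS-IC libraries), 477 against 43 and 87 against 0 (difference over 18 and 20 libraries), 102, 2334 and 3053 (the same litter sets) and 70 (sex). Neither setting called a further member. The 561 litter calls ranged from 2 without 4_3_IC to 3150 without 1_5_IC. No called value of a member changed sign under the alternatives tried. With 3 PWS-IC pups of 1 sex and 4 wild types, genotype and sex are largely confounded.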

Other observations

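The caudal hindbrain and spinal cord list varied most between brains, with a summed level of 0.874 to 97.3 CPM over the 18 libraries, while *Per1* spanned 33.0 to 62.2 CPM. Of its 15 genes 11 lay above 0 in the PWS-cr series, with a median log2 fold change of 1.94 and none called by edgeR. Of the 15, 6 had an unadjusted p under 0.05, 4 of them above 0 and 2 below, beside 2.07% of all genes. The 12 genes of dividing cells all lay below 0 in that series, with a median of -0.12 and none called, and none had an unadjusted p under 0.05. Between the litters of that series, 6 of the 15 caudal genes and all 12 genes of dividing cells had an unadjusted p under 0.05, none called. Of all genes 6.45% were under that p for litter.

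Between the wild types of the series, edgeR called 3 of 11 other clock transcription factors, 1 of 15 kinases, ligases and cofactors and 1 of 12 outputs (*Rev3l*), beside 21.1% of all genes, so these shares lie near or below the background. *Clock* was higher in the PWS-IC series (log2 0.30, adjusted p = 0.00144), as were *Rora* (log2 0.40, adjusted p = 0.0232), which activates *Arntl* through ROR elements, and *Crem* (log2 0.22, adjusted p = 0.0298), a factor that binds CRE. *Arntl2*, the close relative of *Arntl*, was lower (log2 -0.52, adjusted p = 0.00241).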
